A study of Mus musculus with 13 samples.

Results

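Immediate early genes are the first genes a cell transcribes after a stimulus. This account covers 10 of them in Sertoli cells of adult mouse testis: *Fos*, *Fosb*, *Jun*, *Junb*, *Jund*, *Egr1*, *Atf3*, *Ier2*, *Dusp1* and *Klf6*. They were picked by gene symbol, as rows of the count table that carry exactly these names, out of 27111 named genes. All 10 had enough counts to be tested, as did 14421 named genes in all. Each sample came from 1 C57Bl/6J male (genotype given as Bl6 wt) of 3 to 5 months, with 6 control males and 7 males exposed to MSUS, a model that joins unpredictable separation from the dam with unpredictable stress of the dam herself. MSUS pups were taken from their dam daily in early postnatal life, while the dam was put through a swim in water of 18 °C or restrained, and controls were left alone. Males of both groups were weaned on postnatal day 21. Their testes were dissociated with collagenase, trypsin and hyaluronidase and the cells were stained live at 35 °C, then sorted for DNA content, size and mitochondrial signal, so every sample had been through enzymes and warmth before its RNA was taken.

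Immediate early genes respond within minutes because their promoters are held ready by factors already present in the cell. Signals through the MAP kinases, calcium or cyclic AMP phosphorylate serum response factor partners and CREB, and no new protein is needed before transcription starts. *Fos* and *Jun* proteins pair to form AP-1, which then drives a later wave of genes. Warm enzymatic dissociation is known to switch these genes on in many tissues, which is why their level is often read as a sign of how a preparation was handled.

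Total counts per sample ran from 12701664 to 18649819, of which 9776853 to 14383367 lay on named genes. Levels are log2 CPM: the base-2 logarithm of CPM, a gene's count scaled to a fixed total of named-gene counts, after TMM, a correction for library composition, and with a prior count of 2. The 9 Sertoli cell markers had mean levels of 8.98 ± 0.07 log2 CPM (SD) over the 6 controls and 8.94 ± 0.08 over the 7 MSUS males. Transcripts of elongated spermatids were present too, at a mean of 7.90 ± 0.23 log2 CPM over 4 markers in controls and 8.09 ± 0.46 in MSUS samples. Of 6 macrophage markers, none had enough counts to be tested, and their summed level lay between 1.09 and 2.58 CPM in controls and between 0.215 and 2.99 CPM in MSUS samples. *C1qa* had at most 1 count in any sample. In RNA of sorted cells in bulk, fewer cells that express a gene and less RNA per cell cannot be told apart.

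Promoter sequence is shown for 5 genes because their windows hold at least the core of the DNA element that CREB binds. CREB is one of the routes by which a stimulus reaches these genes. The full element was found only in the window of *Dusp1*. RefSeq windows of the 250 bases before the transcription start were available for 8 of the 10 genes, on build GRCm38.p6. Capitals mark TGACG on either strand (CGTCA when read from the other strand), the core of the cyclic AMP response element TGACGTCA. The windows are chr12:85473640-85473889 on the plus strand for *Fos*, and on the minus strand chr7:19310046-19310295 for *Fosb*, chr8:84978749-84978998 for *Junb*, chr1:191183334-191183583 for *Atf3* and chr17:26508473-26508722 for *Dusp1*, each written 5′ to 3′ on the gene's strand.
Fos: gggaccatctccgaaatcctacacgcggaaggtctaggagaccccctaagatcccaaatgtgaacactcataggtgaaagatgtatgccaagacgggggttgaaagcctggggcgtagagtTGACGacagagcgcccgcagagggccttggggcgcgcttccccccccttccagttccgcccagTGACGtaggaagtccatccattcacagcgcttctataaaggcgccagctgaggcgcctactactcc
Fosb: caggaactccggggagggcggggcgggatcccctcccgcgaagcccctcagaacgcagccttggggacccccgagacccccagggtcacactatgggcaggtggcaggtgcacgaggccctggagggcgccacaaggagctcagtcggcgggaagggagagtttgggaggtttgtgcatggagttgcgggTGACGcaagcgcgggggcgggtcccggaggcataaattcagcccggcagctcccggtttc
Junb: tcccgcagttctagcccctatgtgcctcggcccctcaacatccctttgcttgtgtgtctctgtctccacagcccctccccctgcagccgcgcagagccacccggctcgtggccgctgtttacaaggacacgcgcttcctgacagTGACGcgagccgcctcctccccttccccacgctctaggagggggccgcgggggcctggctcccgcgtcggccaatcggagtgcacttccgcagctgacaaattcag
Atf3: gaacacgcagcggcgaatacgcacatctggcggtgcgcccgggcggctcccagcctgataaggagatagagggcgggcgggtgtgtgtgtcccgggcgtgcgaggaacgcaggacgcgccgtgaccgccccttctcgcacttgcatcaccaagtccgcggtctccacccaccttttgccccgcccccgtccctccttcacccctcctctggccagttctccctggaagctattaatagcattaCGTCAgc
Dusp1: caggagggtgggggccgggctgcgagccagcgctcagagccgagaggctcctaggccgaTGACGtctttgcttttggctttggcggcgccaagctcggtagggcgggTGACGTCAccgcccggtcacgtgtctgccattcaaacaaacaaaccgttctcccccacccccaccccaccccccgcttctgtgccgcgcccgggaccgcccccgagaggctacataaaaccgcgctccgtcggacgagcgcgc
In *Fos* the 2 copies start 129 and 66 bases before the transcription start, and a TATA box (TATAAA) starts at 33 bases. *Fosb* has its copy from 60 bases before the start, *Junb* from 106 and *Atf3* from 7. In *Dusp1*, which encodes a phosphatase that switches MAP kinases off again, a full TGACGTCA begins 143 bases before the start and contains 2 overlapping copies of the core, and a further core begins at 191 bases. Of all 32851 RefSeq windows of this length, 17.8% hold TGACG on either strand, 1.55% hold TGACGTCA and 12.4% hold TATAAA. The GC box GGGCGG was found in 6 of the 8 windows (*Atf3*, *Jun*, *Fosb*, *Fos*, *Klf6* and *Dusp1*) and in 32.7% of all windows. Neither the AP-1 site TGACTCA (4.46% of all windows) nor a CArG box, the serum response factor site (1.47%), was found in the 8 windows. Sequence beyond these 250 bases was not searched, and *Egr1* and *Ier2* had no window. Sites of either kind elsewhere near these genes would therefore not be seen. These matches are letters in a window, and no binding was measured. The RefSeq starts of *Jund*, *Atf3* and *Dusp1* lie away from the gene ends in the GENCODE annotation, so these windows belong to 1 of several annotated starts.

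To rank the genes against each other, mean CPM was divided by the length in kb of the longest coding transcript in GENCODE vM21. In the 6 control samples *Jund* stood first at 115.5 ± 12.3 CPM per kb (SD), followed by *Jun* at 103.9 ± 8.67, *Junb* at 88.7 ± 14.6, *Ier2* at 81.2 ± 8.40 and *Egr1* at 70.5 ± 9.49. The control ranges of neighbours in this order overlapped, while the lowest values of *Jund*, 99.5, and *Jun*, 97.1, were above the highest of *Ier2*, 93.6, and *Egr1*, 81.3. *Klf6* at 28.6 ± 2.31 CPM per kb, *Fosb* at 28.4 ± 8.13 and *Fos* at 27.9 ± 6.35 could not be ranked among themselves. The lowest control value of *Egr1*, 56.3 CPM per kb, was above the highest of *Klf6*, 32.6. *Dusp1* at 11.6 ± 2.57 and *Atf3* at 7.01 ± 2.06 CPM per kb were lowest, and their ranges overlapped as well. *Jun* family genes thus stood above *Fos* family genes in controls, where the lowest value of *Junb* was 73.5 CPM per kb and the highest of *Fosb* 41.1. *Jun*, *Junb*, *Jund* and *Ier2* have a single exon. *Jun* overlaps the antisense gene *Junos* and *Jund* overlaps *Gm11175*. The kit keeps strand, but the strand setting of the counting is not given in the sources used here. *Jund* had counts that were not whole within 0.01 in 6 samples, so some of its reads were shared out between features, while the other 9 genes had none.

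**Figure D1:**
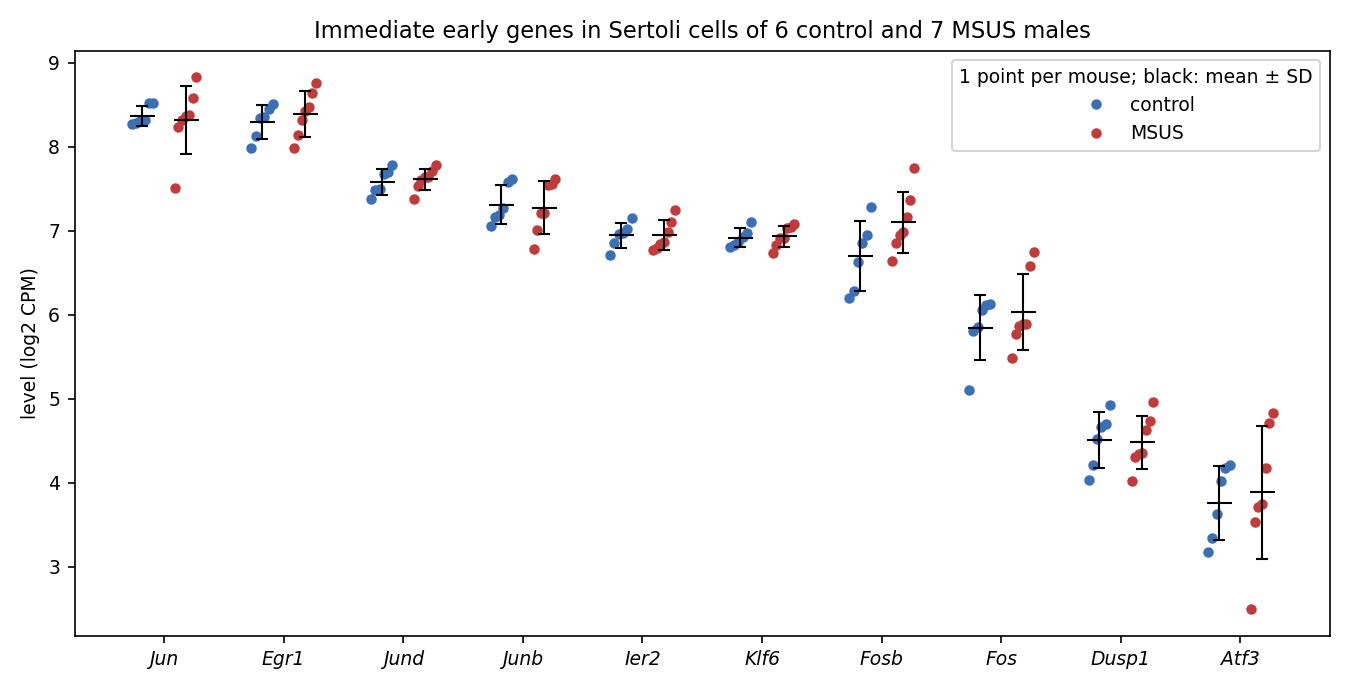
Level in log2 CPM (vertical axis) of each gene (horizontal axis, ordered by control mean) in 6 control (blue) and 7 MSUS (red) males, 1 point per mouse with the mean and SD in black. The groups overlap for all 10 genes, and *Fosb* shows the largest distance between the means.

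The question the design puts to these genes is whether adult males stressed as pups differ in them from controls. Of the 10 genes, 1 had an unadjusted p under 0.05 in the limma fit, *Fosb*, which was higher in MSUS samples. Over all 14421 genes tested, 781 did (5.42%), 435 of them higher and 346 lower. With p-values adjusted across the whole table by Benjamini-Hochberg, limma called 0% of the genes tested, and none of the 10, with a smallest adjusted p of 0.878. edgeR's quasi-likelihood test and DESeq2 also called 0 genes after adjustment, with 793 and 835 genes at an unadjusted p under 0.05. The fitted log2 fold change, MSUS against control, was positive for 7 of the 10 and negative for 3. Its median was 0.027 over the 10 genes and -0.0017 over all genes tested. For none of the 10 were the groups free of overlap, against 19 of all genes tested (0.132%). The p-values measure the spread between the samples of this set, each from 1 mouse. Litters and cages of these mice were not analysed here.

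The *Fos* family supplies the partner of *Jun* in AP-1, and its proteins cannot pair with themselves. *Fosb* ranged in controls from 6.20 to 7.28 log2 CPM with a median of 6.74, and in MSUS samples from 6.65 to 7.74 with a median of 6.98. The lowest controls were numbers 24, 9 and 22, and 6 of 7 MSUS samples lay above the control mean of 6.70. MSUS 5 at 7.74 and MSUS 6 at 7.36 exceeded every control. The fitted difference was 1.32-fold (95% interval 1.03 to 1.70), a log2 fold change of 0.40 with an SE of 0.17. The limma adjusted p was 0.878, and the exact permutation test of the group means, two-sided, gave p = 0.0862. Without MSUS 5 the log2 fold change was 0.30, without MSUS 6 0.36, and without control 9, 22 or 24 it was 0.32, 0.39 or 0.31, and in each of these fits the unadjusted p exceeded 0.05. With both MSUS 5 and MSUS 6 left out, the log2 fold change was 0.22. Of 26 alternatives for *Fosb*, the exact test among them, 17 had an unadjusted p under 0.05. Among fits without a single sample, the log2 fold change was largest without control 14, at 0.51.

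*Fos* lay between 5.10 and 6.13 log2 CPM in controls (median 5.96) and between 5.49 and 6.75 in MSUS samples (median 5.88). MSUS 5 and MSUS 6 at 6.75 and 6.58 were above all controls, and control 22 at 5.10 was below every other sample. The remaining 5 MSUS samples fell between 5.49 and 5.90, inside the range of the controls. The difference was 1.15-fold (0.869 to 1.53), with a limma adjusted p of 0.905. Without MSUS 5 and MSUS 6 the log2 fold change of *Fos* was -0.048, and without control 22 it was 0.047.

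The *Jun* family gives AP-1 its DNA-binding core, and its members can also pair with each other. *Jun* is the classical growth-promoting partner, *Junb* often opposes it, and *Jund* is the form that resting cells keep. *Jun* ranged from 8.27 to 8.52 log2 CPM in controls (median 8.31) and from 7.51 to 8.83 in MSUS samples (median 8.37). The MSUS samples lay on both sides of the controls: MSUS 5 and MSUS 6 were above all of them, at 8.83 and 8.58, and MSUS 1 at 7.51 and MSUS 23 at 8.23 were below all of them. The SD of the controls was 0.12 and that of the MSUS samples 0.41, a difference that was not tested. The fold change of *Jun* was 0.964 (0.785 to 1.18). *Junb* ranged from 7.06 to 7.61 log2 CPM in controls (median 7.23) and from 6.78 to 7.61 in MSUS samples (median 7.21), again with MSUS 1 lowest, and its fold change was 0.977 (0.810 to 1.18). *Jund* covered the same range in both groups, 7.38 to 7.78 log2 CPM, with medians of 7.59 in controls and 7.64 in MSUS samples. Its fold change was 1.02 (0.915 to 1.14). The limma adjusted p was 0.965 or above for all 3 genes.

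*Egr1* encodes a zinc finger factor that is a direct target of the MAP kinase route and is often used as a marker of recent activity. Its controls lay between 7.98 and 8.51 log2 CPM (median 8.35) and its MSUS samples between 7.98 and 8.76 (median 8.43). Control 22 and MSUS 23 shared the lowest level, and MSUS 5 and MSUS 6 were above all controls at 8.76 and 8.64. The fold change was 1.07 (0.911 to 1.26), with a limma adjusted p of 0.925. *Atf3*, a stress-induced factor of the ATF and CREB family, spread most: from 3.18 to 4.21 log2 CPM in controls (median 3.83) and from 2.50 to 4.83 in MSUS samples (median 3.75). Again MSUS 6 at 4.83 and MSUS 5 at 4.71 exceeded every control, while MSUS 23 at 2.50 lay below every control. The fold change of *Atf3* was 1.11 with a wide interval of 0.722 to 1.70. At 51 to 316 counts per sample it was also the gene with the fewest counts.

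*Klf6* and *Ier2* varied less. *Klf6*, a zinc finger factor induced by injury, lay between 6.80 and 7.11 log2 CPM in controls (median 6.89) and between 6.74 and 7.09 in MSUS samples (median 6.92), a fold change of 1.02 (0.921 to 1.12). *Ier2*, a nuclear protein of the early response, lay between 6.71 and 7.16 in controls (median 6.97) and between 6.77 and 7.25 in MSUS samples (median 6.86), a fold change of 1.00 (0.887 to 1.14). *Dusp1* is the feedback arm of this response, as its product removes phosphate from MAP kinases. It ranged from 4.04 to 4.92 log2 CPM in controls (median 4.59) and from 4.02 to 4.97 in MSUS samples (median 4.36). Its fold change was 0.997 (0.792 to 1.26). For these 3 genes the limma adjusted p was 0.969 or above. The intervals of *Klf6*, *Ier2* and *Jund* leave room for a change of no more than about 1.14-fold upward in MSUS samples, whereas those of *Fos* and *Atf3* reach 1.53-fold and 1.70-fold.

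**Figure D2:**
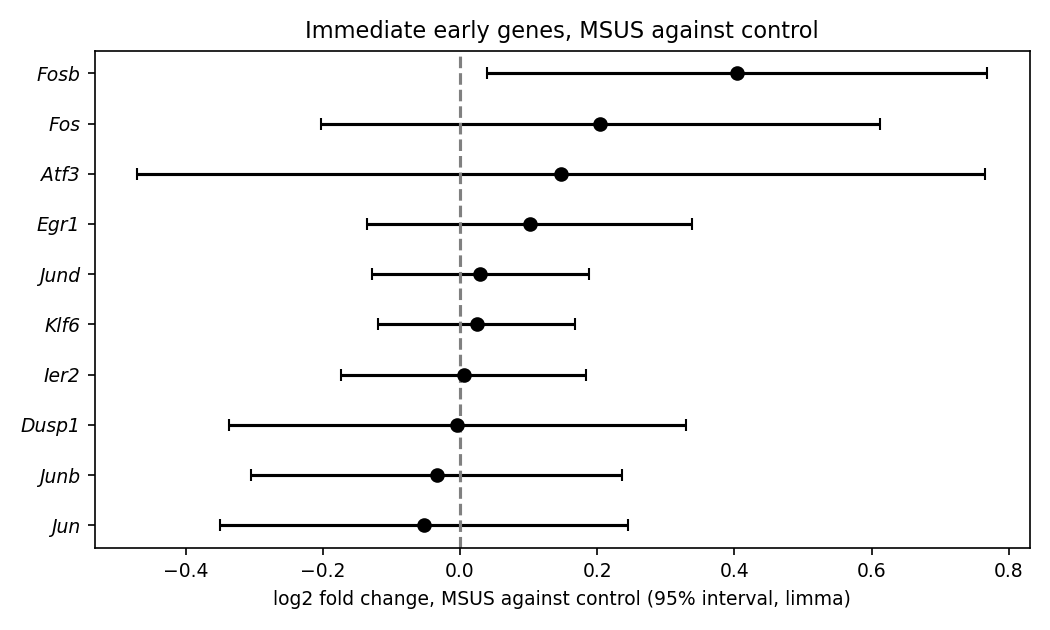
Log2 fold change, MSUS against control, for each gene (horizontal axis) with its 95% interval from limma. The interval of *Fosb* starts just above 0, at 0.04 before any adjustment for the number of genes, and the intervals of the other 9 genes include 0.

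Several of these genes spread widely between mice of the same group. The biological coefficient of variation within groups, estimated per gene in edgeR without shrinkage, was 0.43 for *Atf3*, 0.29 for *Fos* and 0.27 for *Fosb*. For genes of the same level the trend was 0.18, 0.12 and 0.11, so the 3 genes varied 2.41, 2.44 and 2.46 times as much as the trend. The ratio was 1.75 for *Jun*, 1.74 for *Junb*, 1.39 for *Egr1*, 1.39 for *Dusp1*, 1.03 for *Ier2*, 0.865 for *Jund* and 0.715 for *Klf6*. The median ratio was 1.57 for the 10 genes and 0.805 for all genes tested, and 98.6% of all genes tested had a lower ratio than *Atf3*. Between the highest and the lowest mouse the CPM differed 5.15-fold for *Atf3*, 3.14-fold for *Fos*, 2.93-fold for *Fosb* and 2.49-fold for *Jun*, and 1.29-fold for *Klf6*. *Jund* and *Klf6* were the only members below their trend, but 57.0% of all genes tested had a lower ratio than *Jund* and 38.2% a lower ratio than *Klf6*.

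The same mice were high or low for most of the genes. A score was taken as the mean over the 10 genes of each sample's deviation from the gene's mean over the 13 samples, in log2 CPM. It was highest in MSUS 5 at 0.45 and MSUS 6 at 0.38, followed by control 14 at 0.25 and control 12 at 0.14. It was lowest in control 22 at -0.32, MSUS 23 at -0.30, MSUS 1 at -0.26 and control 24 at -0.19. The other 5 samples lay between -0.066 and 0.063. Both ends held mice of both groups, and the score averaged -0.040 ± 0.21 over the 6 controls and 0.034 ± 0.29 over the 7 MSUS males (SD). In MSUS 5, MSUS 6 and control 14 all 10 genes were above their mean, and in control 22 and MSUS 1 none was. MSUS 5 was the highest sample for 6 of the genes, MSUS 6 for 3 and control 14 for *Klf6*. Taken as a share of all named counts, the 10 genes held from 0.117% in MSUS 1 to 0.194% in MSUS 5.

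**Figure D3:**
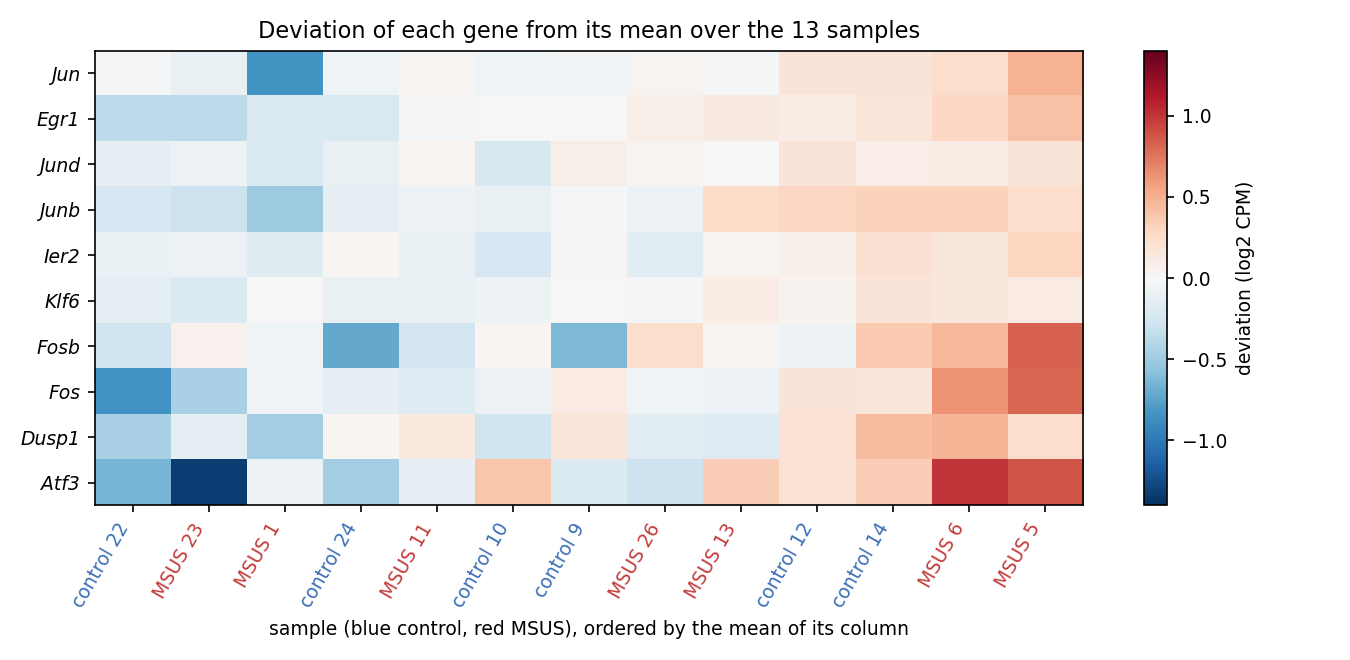
Deviation in log2 CPM of each gene (rows) from its mean over the 13 samples (columns, ordered by the mean of the column, control names in blue and MSUS names in red). Samples on the right, MSUS 5, MSUS 6 and control 14, are above the mean for all 10 genes, and control 22 on the left is below it for all 10.

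Pairwise correlations over the 13 samples put a number on this. Of the 45 pairs of genes, all 45 had a positive Pearson r, with a median of 0.694, and all 45 were also positive within the 6 controls alone and within the 7 MSUS samples alone. The within-group medians were 0.717 and 0.741. Over all 103975410 pairs of tested genes the median r was -0.004, and 1.31% of pairs reached the median of the 45. The closest pair was *Fos* and *Egr1* (r = 0.898, permutation p = 2e-05, rho = 0.868, permutation p = 0.00026, adjusted over the 45 pairs 0.0009 and 0.00234). Leaving out the 2 samples farthest from the median of *Fos* gave r = 0.815. *Egr1* and *Atf3* followed at r = 0.889 (rho 0.824). *Fosb* stood most apart, and its r with *Dusp1* was the lowest of all at 0.309 (permutation p = 0.305; rho 0.385, permutation p = 0.196). After adjustment over the 45 pairs, 33 had p under 0.05 for r and 35 for rho. Without MSUS 5 and MSUS 6, which were left out because they were highest, 44 pairs were positive, the median r was 0.536 and 15 pairs had an adjusted p under 0.05. The 45 pairs share their genes and libraries and are not independent. Co-variation of this size was not limited to these genes. The median pair r was 0.848 for elongated spermatid, 0.841 for peritubular myoid and 0.798 for spermatocyte markers. In the other lists it ran from -0.035 for spermatogonia to 0.548 for round spermatid markers. For the list of other early response genes, taken up below, it was 0.249.

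**Figure D4:**
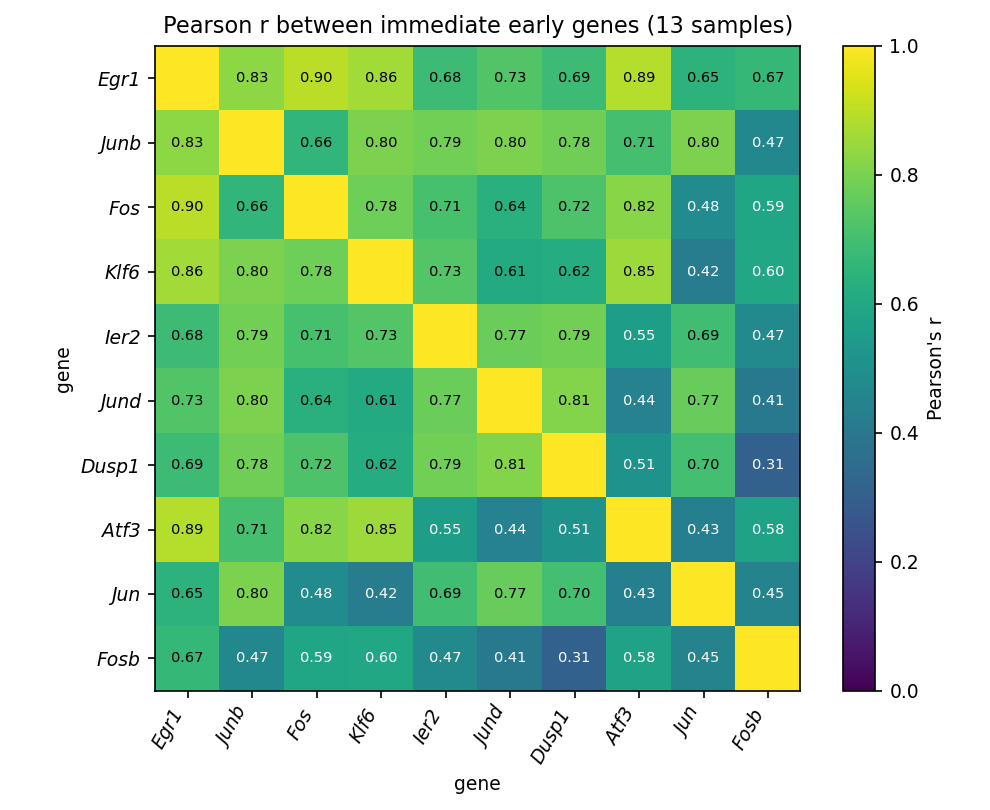
Pearson r of log2 CPM between the genes over 13 samples, with both axes ordered by each gene's mean r. The upper left block around *Egr1*, *Junb*, *Fos* and *Klf6* holds high values such as 0.898 for *Fos* and *Egr1*, and the last row, *Fosb*, holds the lowest, 0.309 with *Dusp1*.

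Against the score of the other 9 genes, *Egr1* had the highest r at 0.955, then *Klf6* at 0.862, *Fos* at 0.859 and *Junb* at 0.855. *Jun* at 0.665 and *Fosb* at 0.5995 had the lowest. *Klf6* moved little in size and closely in step, with only 1.29-fold between its extremes. *Fosb*, the gene with the largest fitted difference between the groups, was the one least tied to the others over the 13 samples. Its pairs had r from 0.177 (*Jund*) to 0.763 (*Atf3*) within controls. Within MSUS samples they had r from 0.534 (*Dusp1*) to 0.847 (*Fos*), where the lowest of all pairs was *Jun* and *Klf6* at 0.390.

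Genes with the pattern most like the score were sought among 14274 tested genes outside every list used here, by Pearson r over the 13 samples and by rank only. The first was *Cxcl1*, a neutrophil-attracting chemokine, with r = 0.953 (rho 0.940). Then came *Ppp1r15a*, the stress-induced subunit that reverses the block of translation, at 0.941 (rho 0.896), and *Sik1*, a kinase induced by cyclic AMP, at 0.933 (rho 0.929). *Irf1*, the interferon-responsive factor, had 0.902 (rho 0.813), and *Nfkbiz*, an early NF-kB cofactor, 0.891 (rho 0.956). Without MSUS 5 and MSUS 6 these r values were 0.935, 0.894, 0.897, 0.846 and 0.934. The values come from the highest of many genes and share libraries with the score, so they carry no test.

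Further early response genes, a list of 48 that includes the Egr, Nr4a, Zfp36 and Gadd45 families, followed the score closely. Of these, 43 were tested, and the score of the list had r = 0.949 with that of the 10 genes (rho 0.857), 0.906 within controls and 0.983 within MSUS samples. It ran from -0.27 in control 24 to 0.43 in MSUS 5, with control 14 at 0.25 and MSUS 6 at 0.31. Of the 43, 33 had a positive and 10 a negative log2 fold change, with a median of 0.081, while 7141 of all 14421 genes tested were positive. The median was -0.0116 without MSUS 5 and MSUS 6 and -0.0089 with the mitochondrially encoded share as a covariate. Only *Per1*, a clock gene that glucocorticoids and cyclic AMP induce, had an unadjusted p under 0.05. Its controls lay between 6.99 and 7.47 log2 CPM (median 7.23) and its MSUS samples between 7.30 and 7.73 (median 7.48), and 4 MSUS samples were above all controls. The log2 fold change of *Per1* was 0.29 with an SE of 0.09 and a limma adjusted p of 0.878. Next by p were the kinase *Plk3* at 0.80 (SE 0.40) and the mRNA decay factor *Zfp36l1* at 0.48 (SE 0.25). The number with an unadjusted p under 0.05 was 7 without MSUS 23, where the whole table had 873, and 2 without MSUS 6, MSUS 13, MSUS 26, control 12, control 14 or control 24. It was 4 with sample quality weights, 3 in DESeq2, and 2 in edgeR and with the macrophage and endothelial markers as a covariate.

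Kinases and factors that induce early genes were far less tied to the score. Of 31, 30 were tested and none had an unadjusted p under 0.05 in limma, with a median log2 fold change of 0.04. Closest were *Araf*, a kinase of the RAF step, at 0.17 (SE 0.08), *Elk1*, a serum response factor partner, at 0.26 (SE 0.14), and *Map2k2*, which activates ERK, at 0.11 (SE 0.07). The score of this list had an r of 0.220 with that of the 10 genes, 0.0126 without MSUS 5 and MSUS 6, and its highest sample was MSUS 26 at 0.17. Leaving out any of MSUS 1, MSUS 6, MSUS 13, control 9, control 12, control 14 or control 22 brought 1 of the 30 under 0.05, as did DESeq2 size factors and a filter of 1 CPM. With the elongated spermatid markers as a covariate there were 3, in a fit with 1205 genes under 0.05 in the whole table.

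Of 18 other AP-1 and ATF family members, 13 were tested, none with an unadjusted p under 0.05, and their median log2 fold change was 0.01. *Atf6b*, a sensor of endoplasmic reticulum stress, had -0.14 (SE 0.08), *Fosl2*, a further *Fos* relative, 0.37 (SE 0.26), and *Atf2*, a *Jun* partner, -0.13 (SE 0.09). Their score had r = 0.791 with that of the 10 genes, while pairs within the 13 had a median r of 0.114. *Fosl2* and *Maff* are also in the list of early response genes and *Atf1* in that of kinases and factors, so these lists are not separate. Without MSUS 13, MSUS 23 or MSUS 26, 1 of the 13 came under 0.05.

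Heat shock and chaperone genes answer to protein damage and warmth. Of 17, 16 were tested, and *Hspa1a*, the inducible HSP70, was the only one with an unadjusted p under 0.05. Its controls lay between 3.89 and 4.19 log2 CPM (median 4.06) and its MSUS samples between 3.74 and 4.94 (median 4.57), with 6 of 7 MSUS samples above all controls and 1 below all. The log2 fold change was 0.43 with an SE of 0.16 and a limma adjusted p of 0.878. *Hspa1a* has a near-identical neighbour, *Hspa1b*, and its counts are uncertain to that extent. *Hspa1b* averaged 32.1 CPM in controls and 33.0 CPM in MSUS samples, against 16.6 and 22.9 CPM for *Hspa1a*. The log2 fold change of *Hspa1b* was 0.06 (SE 0.16). Over 26 alternatives the log2 fold change of *Hspa1a* ran from 0.27 to 0.54, and 24 of them had an unadjusted p under 0.05. Without MSUS 5 and MSUS 6 the log2 fold change of *Hspa1a* was 0.27. With the mitochondrially encoded share as a covariate it was also 0.27, both with an unadjusted p above 0.05. *Hspa8*, the constitutive form, had -0.08 (SE 0.05) and *Hspd1*, a mitochondrial chaperone, -0.07 (SE 0.05). The median over the 16 genes was -0.04, and without control 10 the number under 0.05 was 3. The score of the list had r = 0.773 with that of the 10 genes, but ran only from -0.10 in control 22 to 0.06 in MSUS 5. Pairs of genes within the list had a median r of only 0.016, so the list did not vary as 1 unit.

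**Figure D5:**
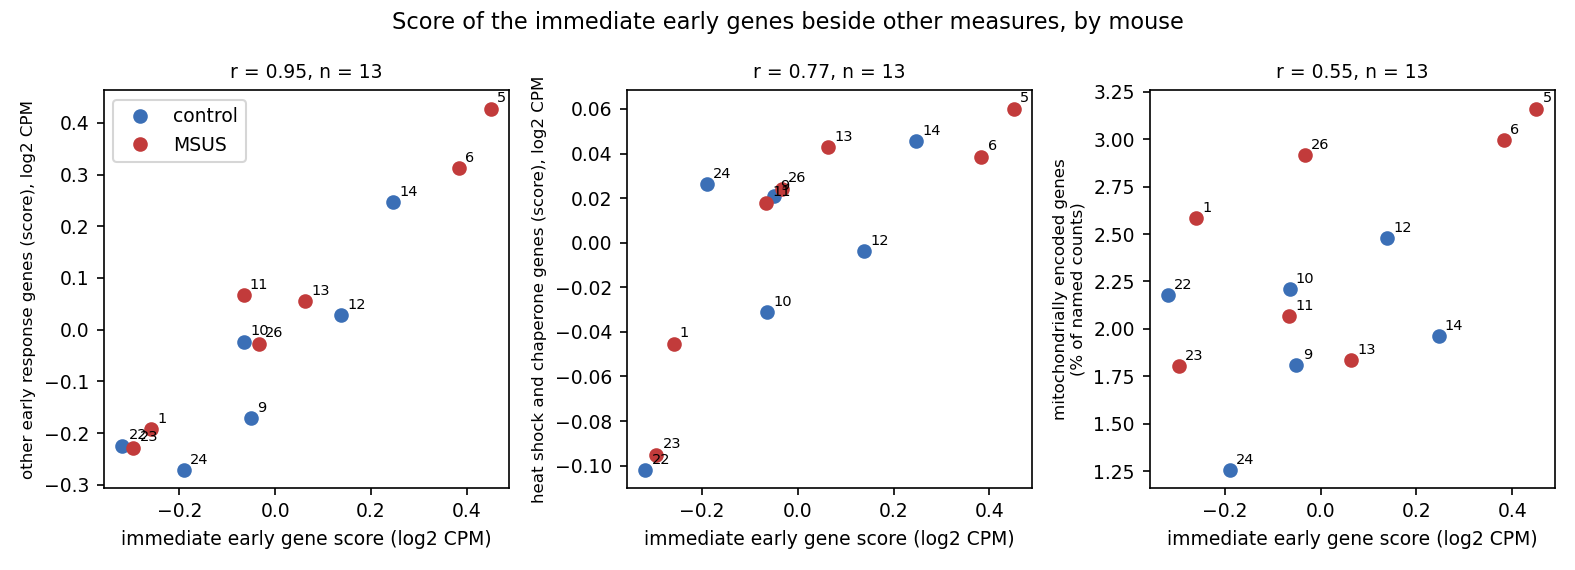
Score of the 10 immediate early genes (horizontal axis, log2 CPM) against the score of other early response genes, the score of heat shock and chaperone genes (both log2 CPM) and the share of mitochondrially encoded genes in named counts (%), by mouse, with mouse numbers beside the points, controls in blue and MSUS in red. Pearson r is 0.949, 0.773 and 0.548 from left to right, and MSUS 5 and MSUS 6 lie at the right end of each panel.

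Other properties of the libraries were set beside the score. The total count had an r of -0.01 with it. The share of named counts on mitochondrially encoded genes was highest in MSUS 5 and MSUS 6, at 3.16% and 2.99% against 1.26% to 2.91% in the other 11 samples, and had r = 0.548 with the score over all samples, 0.303 within controls and 0.650 within MSUS samples. With this share as a covariate, the log2 fold change of *Fosb* was 0.14. The share itself averaged 1.98 ± 0.42% over the controls and 2.48 ± 0.57% over the MSUS samples (SD). The paper also reports that mitochondrial copy number differed between the groups in this cohort. This fit therefore cannot fully separate the share from the group. The share of counts on features without a gene name was also highest in MSUS 6 at 26.7% and MSUS 5 at 25.2%, against 20.7% to 24.1% elsewhere. The summed level of the 9 Sertoli cell markers had r = -0.315 with the score, -0.04 within controls and -0.46 within MSUS samples. *Clu* alone averaged 8638 of the summed 14610 CPM in controls. The mean log2 CPM of the 9 markers had r = -0.399, 0.12 within controls and -0.65 within MSUS samples. The summed level of the 6 macrophage markers, at most 2.99 CPM, had r = 0.358, but -0.48 within controls and 0.71 within MSUS samples. Of 5 endothelial markers 4 were tested, and the summed level was 53.3 to 68.8 CPM in controls and 52.4 to 73.9 CPM in MSUS samples, with *Tie1* at 0 in some samples (r = 0.171). Of 4 peritubular myoid markers 3 were tested, with a summed level of 7.55 to 58.8 CPM in controls and 10.8 to 86.8 CPM in MSUS samples, highest in MSUS 5. The r of this level was 0.317 over all samples, -0.65 within controls and 0.64 within MSUS samples, so its sign differed between the groups as it did for macrophage markers. All 5 Leydig cell markers were tested, with a summed level of 29.9 to 66.7 CPM in controls and 39.9 to 83.1 CPM in MSUS samples, highest in MSUS 6 (r = 0.468, 0.205 within controls and 0.591 within MSUS samples). Summed levels of the 4 elongated spermatid markers were 845.7 to 1375 CPM in controls and 728.3 to 1772 CPM in MSUS samples (r = 0.301, 0.795 within controls and 0.102 within MSUS samples). The part of these properties in the levels of the immediate early genes was not tested, and neither times of dissociation and sorting nor their dates were analysed here.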

How the data were processed

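RNA was sequenced from sorted Sertoli cells of 6 control and 7 MSUS males. Per the study's methods and processing notes, the authors trimmed reads with Trim Galore 0.6.5, assigned them with Salmon 1.1.0 to GENCODE vM23 transcripts, and deposited estimated counts per gene without normalization. How transcripts were summed to genes is not given in the sources used here. The deposited table has 54281 features and 0 columns without a sample. The 27170 features without a gene name took up 20.7% to 26.7% of each sample and entered neither library sizes nor tests.

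Estimated counts were rounded, filtered with filterByExpr, scaled with TMM (edgeR 4.0.16) and tested with limma 3.58.1 voom in R 4.3.3, with Benjamini-Hochberg adjustment over all 14421 genes. TMM and voom follow the study's methods, while the filter, group as the only term and the adjustment were chosen here. The limma fit was tested on simulated counts. Exact permutation tests covered all 1716 ways to choose 6 of the 13 samples, and correlations used 1e+05 resamples. The most alike pair of libraries differed 6.11 times as much as counting noise gives, so none was counted as a repeat. Spread between mice and between library preparations cannot be told apart.

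The 10 genes and all lists were chosen with earlier results of these data known. Named genes were all 10, in each pathway list those with p under 0.05 and, where fewer than 3, the 3 with the smallest p, the 5 tested genes outside all lists most like the score, and cell type markers. Alternatives were edgeR's quasi-likelihood test, DESeq2 1.42.0, other scalings and filters, keeping unnamed features, sample weights, 3 covariates and leaving out each sample. Leaving out MSUS 5 and MSUS 6 together was chosen after seeing the data. RT-qPCR and culture experiments were not analysed here.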

Additional observations from a re-analysis of the deposited data

Results flagged for a closer look

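The level of *Fos* in control 22 was 5.104 log2 CPM, while the other 5 controls lay between 5.807 and 6.126. It was singled out because its gap to the nearest control took up 0.689 of the range of the group. The mean level of the 5 Leydig cell markers in control 9 stood at 1.343 log2 CPM and in the remaining controls between 2.535 and 3.178, a gap of 0.65 of the range. Of 48 groups of values searched in this way 2 stood out, and chance alone gives about 2.4.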

How the results depend on the processing

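No paired analysis was possible because the groups share no replicate number in the labels. Litters and cages were not used here. After adjustment 0 genes were called in every fit run. The 781 genes with an unadjusted p under 0.05 became 1182 without a filter on low counts, 1205 with the elongated spermatid markers and 403 with the mitochondrially encoded share as a covariate, 423 without MSUS 5 and MSUS 6, and between 534 (without MSUS 5) and 1121 (without control 10) when single samples were left out. The 1 immediate early gene under 0.05, *Fosb*, became 0 in DESeq2, with the mitochondrially encoded share and without MSUS 5 and MSUS 6, and 0 to 1 without single samples. Its log2 fold change lay between 0.14 and 0.51 throughout. The median of the 10 genes was -0.0031 to 0.080 without single samples and -0.068 without MSUS 5 and MSUS 6.

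Of 260 alternative values for single immediate early genes, from refits and from the difference of mean log2 CPM used in the exact test, 39 changed the sign of a small fold change. Without MSUS 5 and MSUS 6 the log2 fold change was -0.048 for *Fos*, -0.0232 for *Jund*, -0.0215 for *Egr1*, -0.203 for *Atf3*, -0.0887 for *Ier2* and -0.0267 for *Klf6*. The mitochondrially encoded share had a higher mean in MSUS samples. With this share the log2 fold change was -0.0177 for *Jund*, -0.0268 for *Egr1*, -0.188 for *Atf3*, -0.0309 for *Ier2* and -0.0266 for *Klf6*. With sample quality weights it was 0.0316 for *Jun*, 0.0404 for *Junb* and 0.0578 for *Dusp1*. With the elongated spermatid markers it was -0.0320 for *Atf3* and -0.00415 for *Ier2*. *Ier2* had -0.0105 with library size alone, -0.000884 with unnamed features kept and -0.00313 with the macrophage and endothelial markers, and *Dusp1* had 0.000689 with DESeq2 size factors. Without single samples *Atf3* ranged from -0.00766 to 0.351, *Dusp1* from -0.105 to 0.0755, *Ier2* from -0.0456 to 0.0452, *Jun* from -0.138 to 0.0836, *Junb* from -0.0892 to 0.04998, *Jund* from -0.0137 to 0.0694 and *Klf6* from 0.00113 to 0.0601. The cause was not tested.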
